A study of Rattus norvegicus with 34 samples.

Results

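The genes described here were the cytochrome P450s and the epoxide hydrolases of the rat, with the reductase that serves them. A gene was included when its symbol in the platform annotation began with Cyp and a digit, or was Ephx1, Ephx2, Ephx3, Ephx4 or Por. This gave 74 genes of the 14506 that the array names with a single symbol, and 74 of 29214 rows of the expression table. The rule was to take the row with the highest mean log2 signal over all arrays of a tissue. Each gene had only 1 row with its symbol, used in both tissues, so that rule made no choice. The gene family was taken up with earlier results of these data known. Within it, members were chosen by symbol.

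Male Wistar rats had the proximal left coronary artery tied, or had the same operation without tying, and tissue was taken 2 months later. RNA was measured on Affymetrix gene arrays from the left ventricle (LV) and from peripheral blood mononuclear cells (PBMCs), the lymphocytes and monocytes of blood. The LV arrays came from 6 sham-operated rats (sham), 6 with a small infarct (S-MI), 6 with a moderate infarct (M-MI) and 5 with a large infarct (L-MI). PBMC arrays came from 5 L-MI and 6 sham rats, so that 34 arrays were used in all. From infarcted hearts the part of the ventricle free of scar was taken, from sham hearts the whole ventricle. The L-MI rats were those in heart failure, while S-MI and M-MI stood for a compensated injury of the ventricle. The L-MI array of replicate 1 in each tissue carries a description of a compensated injury against its own title, and was kept in L-MI as titled.

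Cytochrome P450s are haem enzymes that insert an oxygen atom into fatty acids, sterols, steroid hormones, vitamins and drugs, with electrons passed to most of them by the reductase Por. In the heart they are best known for what they make of arachidonic acid: epoxygenases form epoxyeicosatrienoic acids, which widen coronary vessels, and hydroxylases of the CYP4 family form hydroxylated fatty acids. Soluble epoxide hydrolase, the product of Ephx2, turns the epoxides into diols, and Ephx1 codes for the microsomal enzyme that also clears epoxides of foreign compounds.

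Of the 74 genes, 19 had a mean LV signal at or above the median of the array (6.56 on the log2 scale), and 55 lay below it. Just above that line stood Cyp2d1, a member of a drug-oxidising subfamily, with a mean level of 6.69. Just below it stood Ephx3 and Cyp2j3 with mean levels of 6.49 each. In PBMCs 13 genes lay at or above the median (6.99), with Cyp2d2 just inside at 7.17 and Cyp4a3 just outside at 6.60. Genes below the median are called low signal here. Most of the liver and drug-metabolising genes were of this kind: 25 of 30 xenobiotic P450s were low signal in the LV and 28 of 30 in PBMCs. A level belongs to its own probes, so that levels of different genes are not amounts that can be compared. They served only to choose which genes to name. Close paralogs, such as the Cyp2b, Cyp2c, Cyp2d, Cyp3a and Cyp4a genes, may share probe sequence.

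**Figure D1:**
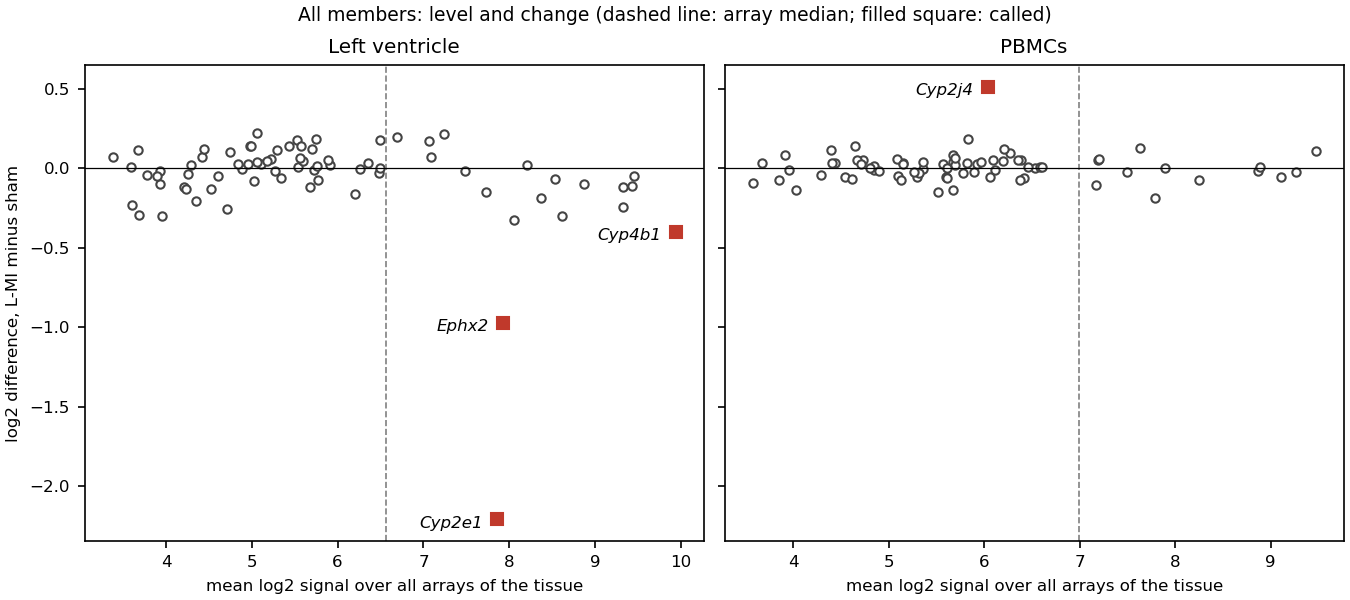
Each point is 1 of the 74 genes, with its mean log2 signal over all arrays of the tissue on the horizontal axis and the log2 difference of L-MI minus sham on the vertical axis, for the LV (left) and PBMCs (right). The 3 called genes of the LV, Cyp2e1, Ephx2 and Cyp4b1, all lie right of the dashed array median and below 0, while the 1 called gene of PBMCs, Cyp2j4, lies left of it.

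The sequence around the transcription start is given for Cyp2e1 and Cyp4b1, because these were called lower in L-MI ventricles and are the called genes of the LV for which a promoter was at hand (RefSeq, build GRCr8, 250 bases before to 50 after the annotated start, 5′ to 3′ on the gene's strand). The Cyp2e1 window lies at chr1:205269717-205270016 on the plus strand and the Cyp4b1 window at chr5:134393067-134393366 on the minus strand. Capitals mark matches to any of 9 short motifs on either strand.
Cyp2e1: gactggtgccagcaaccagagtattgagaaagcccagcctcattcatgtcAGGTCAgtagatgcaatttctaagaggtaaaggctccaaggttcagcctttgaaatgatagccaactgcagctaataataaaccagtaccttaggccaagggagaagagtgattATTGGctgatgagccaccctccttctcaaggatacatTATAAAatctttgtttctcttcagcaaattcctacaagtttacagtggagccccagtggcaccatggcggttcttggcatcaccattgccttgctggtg
Cyp4b1: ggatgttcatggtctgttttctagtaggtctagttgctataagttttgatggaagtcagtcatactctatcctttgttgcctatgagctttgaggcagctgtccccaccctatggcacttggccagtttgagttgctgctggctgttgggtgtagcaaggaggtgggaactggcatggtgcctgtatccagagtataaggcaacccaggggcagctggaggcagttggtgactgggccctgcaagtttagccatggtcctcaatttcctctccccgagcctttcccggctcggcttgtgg

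The capitals in Cyp2e1 are, from the left, a nuclear receptor half-site (AGGTCA) that begins at -200, a CCAAT box on the opposite strand at -86 and a TATA box (TATAAA) at -49. TATAAA was in 14.2% of 33469 rat promoters of the same length and in 16 of the 58 promoters that could be matched to these genes (27.6%). AGGTCA was in 16.2% of all promoters and in 19 of the 58 (32.8%), and CCAAT in 37.5% of all and in 28 of the 58 (48.3%). The Cyp4b1 window held no match to those letters, nor to the GC box GGGCGG (33.1% of all promoters), the E-box CACGTG (6.42%), the aryl hydrocarbon receptor core GCGTG (29.7%), the AP-1 site TGACTCA (4.63%), the direct repeat 1 of the half-site (0.0538%) or the HNF1 consensus (0.00299%), the last 2 given by name. Motifs that contain one another, such as the half-site and its repeat, were counted apart. The G and C content was 46.0% in the Cyp2e1 window and 53.0% in that of Cyp4b1.

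The main comparison asked which of these genes differed in the failing ventricle, L-MI against sham. Cyp2e1, Ephx2 and Cyp4b1 were lower, by 4.62-fold, 1.96-fold and 1.32-fold, and 0 of 74 were higher, against 2.08% of all rows called higher. Calls required a 1.3-fold difference or more together with a limma p no higher than 0.05 after Benjamini-Hochberg adjustment over all rows. By that rule 3 of 74 genes were called, against 3.22% of all 29214 rows, and 3 of 74 were called lower, against 1.14% of all rows. The number of arrays limits the precision. Without the fold threshold the count was 5 of 74, against 9.48% of all rows, with Cyp27a1 and Cyp2t1 added, both lower. At an unadjusted p under 0.05 it was 16 of 74, against 21.5% of all rows. A negative difference was found for 38 of 74 genes, against 52% of all rows. Among the 19 genes at or above the array median it was found for 14, against 53.8% of such rows, with a median difference of -0.11 for the 19 and -0.01 for all such rows. In these pieces of ventricle, fewer cells of a type and less RNA in each cell cannot be told apart.

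Cyp2e1 codes for the P450 that oxidises ethanol, acetone and other small molecules, and that fasting and diabetes raise in rat liver. Its log2 signal was 6.10, 6.66, 5.18, 6.23 and 5.89 in L-MI ventricles, against a range of 7.44 to 8.68 with a median of 8.30 in sham ventricles. Every L-MI array was thus below every sham array, and the highest L-MI value was still clearly under the lowest sham value. The means were 6.01 ± 0.54 (SD, n = 5) in L-MI and 8.22 ± 0.50 (SD, n = 6) in sham ventricles. The difference was -2.21 (SE 0.41, 95% interval -3.06 to -1.36, limma adjusted p = 0.000918). No other row of the table had a lower difference in that comparison. With any of the 23 LV arrays left out it stayed called, with differences between -2.37 and -2.00.

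Ephx2 had log2 signals of 7.43, 6.67, 7.60, 7.84 and 6.21 in L-MI ventricles, against 7.89 to 8.59 with a median of 8.05 in sham ventricles. All L-MI arrays lay below all sham arrays, with replicate 4 close to the lowest sham array and replicates 2 and 5 far below it. The means were 7.15 ± 0.68 (SD, n = 5) in L-MI and 8.12 ± 0.25 (SD, n = 6) in sham ventricles, with a wider spread in L-MI. The difference was -0.97 (SE 0.24, 95% interval -1.48 to -0.47, limma adjusted p = 0.0111). It stayed called with any array left out, between -1.15 and -0.74. The smallest reduction was seen without L-MI replicate 5, at an adjusted p of 0.0435.

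The other epoxide hydrolases did not pass the test. Ephx1 had 9.49 ± 0.25 (SD, n = 5) in L-MI and 9.54 ± 0.19 (SD, n = 6) in sham ventricles, a difference of -0.05 with a 95% interval of -0.32 to 0.22. Ephx3 and Ephx4, which were low signal, had differences of 0.00 and 0.02. Por, the electron donor of the microsomal P450s, had 9.38 ± 0.09 (SD, n = 5) in L-MI and 9.50 ± 0.09 (SD, n = 6) in sham ventricles. Its difference of -0.11 had an interval of -0.25 to 0.03 (limma adjusted p = 0.355). The intervals of Ephx1 and Por thus leave out a change as large as that of Ephx2.

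Cyp4b1 codes for a hydroxylase of medium-chain fatty acids and foreign compounds, best known in lung. Its log2 signal was 9.50, 10.04, 9.61, 9.60 and 9.48 in L-MI ventricles, against 9.89 to 10.23 with a median of 10.02 in sham ventricles. Replicate 2 of L-MI lay within the sham range, and the other 4 L-MI arrays lay below all sham arrays. The difference was -0.40 (SE 0.09, 95% interval -0.58 to -0.21, limma adjusted p = 0.00466), a 1.32-fold reduction that is barely past the fold threshold. It fell short of a fold of 1.3 without sham replicate 2 or 4 (-0.38 and -0.36) and without L-MI replicate 1 or 5 (-0.36 each), while its adjusted p stayed at 0.0197 or lower. Replicate 1 is the array whose description and title disagree. Without it Cyp2e1 had -2.23 and Ephx2 had -1.04, both called.

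**Figure D2:**
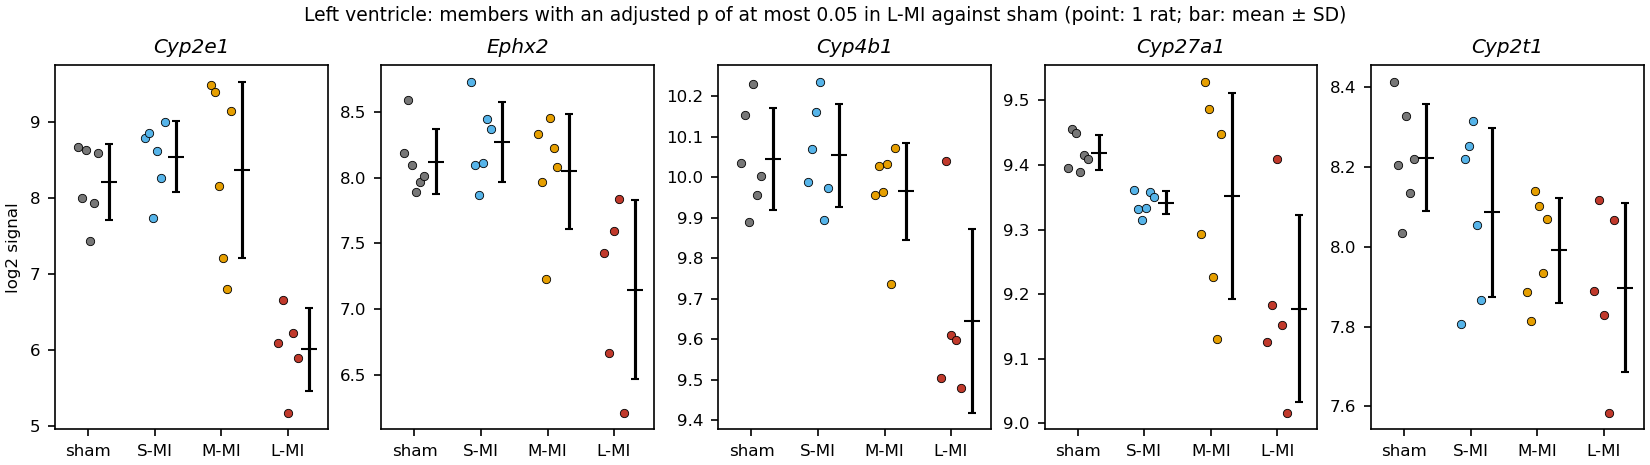
Log2 signal in the LV for the 5 genes with an adjusted p of at most 0.05 in L-MI against sham, with 1 point per rat in sham, S-MI, M-MI and L-MI and a bar for the mean ± SD. All L-MI points lie below all sham points for Cyp2e1 and Ephx2, 1 L-MI point of Cyp4b1 reaches 10.04, and M-MI points of Cyp2e1 spread from 6.81 to 9.49.

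Among the 17 P450s of fatty acids and eicosanoids, 7 were at or above the array median. Of the 17, 1 was called, Cyp4b1, against 3.22% of all rows. Cyp2u1, which hydroxylates long-chain fatty acids, had a difference of 0.02 with a 95% interval of -0.09 to 0.13. Cyp2j4, of the family that makes epoxides from arachidonic acid, had -0.02 with an interval of -0.34 to 0.30. The leukotriene and fatty acid hydroxylases Cyp4f5 and Cyp4f6 had -0.19 and -0.07, with adjusted p values of 0.391 and 0.475.

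Cyp4v3, the rodent counterpart of a human fatty acid hydroxylase, had log2 signals of 7.40, 7.23, 7.48, 7.31 and 7.43 in L-MI ventricles, against 7.07 to 7.21 in sham ventricles. All L-MI arrays thus lay above all sham arrays, by a narrow gap. The difference was 0.21 (SE 0.08, limma adjusted p = 0.0923), which missed both thresholds. Groups did not overlap for 3 of 74 genes, Cyp2e1, Ephx2 and Cyp4v3, against 6.97% of all rows.

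Cyp2j3 codes for an arachidonic acid epoxygenase known from rat heart, and was singled out after its values were seen. It lay just below the array median, with 6.79, 6.73, 6.73, 6.46 and 6.51 in L-MI ventricles and 6.35 to 6.59 in sham ventricles. The 2 ranges overlapped. The difference was 0.18 (SE 0.06, limma adjusted p = 0.0659). Against M-MI and S-MI the differences were 0.22 and 0.20, with adjusted p values of 0.0257 and 0.0396 but folds of 1.17 and 1.15, under the fold threshold.

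Among the 7 P450s of cholesterol and bile acids, Cyp27a1 and Cyp51 were above the array median and none was called, against 3.22% of all rows. Cyp27a1, the mitochondrial sterol 27-hydroxylase, had 9.13, 9.18, 9.41, 9.15 and 9.02 in L-MI ventricles, against 9.39 to 9.46 in sham ventricles. Replicate 3 of L-MI lay within the narrow sham range and the other 4 lay below it. The difference of -0.24 (SE 0.07, limma adjusted p = 0.0197) was a 1.18-fold reduction, under the fold threshold. Its adjusted p reached 0.0724 with 1 array left out and 0.102 under the other alternatives. Cyp51, which removes a methyl group from lanosterol on the way to cholesterol, had -0.10 (adjusted p = 0.374).

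Of the 6 steroid hormone P450s only Cyp11a1, the side-chain cleavage enzyme that starts steroid synthesis, was above the array median. It had 8.39 ± 0.26 (SD, n = 5) in L-MI and 8.69 ± 0.27 (SD, n = 6) in sham ventricles. The difference of -0.30 had an unadjusted p of 0.0427 and an adjusted p of 0.213 by limma. Cyp11b2, aldosterone synthase, and Cyp17a1 were low signal, with differences of 0.06 and 0.18. All 5 P450s of vitamins A and D were low signal in the LV, with differences between -0.03 and 0.05.

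Of the 30 xenobiotic P450s, 1 was called, Cyp2e1, against 3.22% of all rows, and 5 were at or above the array median. Cyp2t1 had 7.89, 8.12, 7.83, 7.58 and 8.07 in L-MI ventricles, against 8.04 to 8.41 in sham ventricles. Its groups overlapped through L-MI replicates 2 and 5. The difference was -0.33 (SE 0.10, limma adjusted p = 0.044), a fold of 1.25, and it passed the fold threshold only without L-MI replicate 2 (-0.38, adjusted p = 0.0203). The adjusted p of Cyp2t1 reached 0.157 with 1 array left out and 0.281 under the other alternatives. Cyp1b1, an oxidiser of oestrogens and polycyclic hydrocarbons, had a difference of 0.17 (adjusted p = 0.583), and Cyp2d1 and Cyp2d4 had 0.19 and -0.15. Cyp20a1, a P450 without a settled substrate, had -0.12 (adjusted p = 0.173). The 55 low-signal genes ranged from -0.30 to 0.22. Of them 0 were called, against 3.22% of all rows, and 8 had an unadjusted p under 0.05, against 21.5% of all rows.

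On the chromosome, neither Cyp2e1 nor Ephx2 had another of these 74 genes among the 4 genes on either side of it in the RefSeq annotation of GRCr8. Cyp4b1 is next to Cyp4a1 and Cyp4a3, both low signal and not called, with differences of 0.02 and 0.18.

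The next comparisons asked whether these genes also differed after the smaller, compensated infarcts. None did by the same rule. In M-MI against sham 0 of 74 genes were called by limma, as were 0% of all rows, and 6 of 74 had an unadjusted p under 0.05, against 7.03% of all rows. In S-MI against sham 0 of 74 were called, as were 0% of all rows, and 1 of 74 had an unadjusted p under 0.05, against 6.33% of all rows. The lowest adjusted p among the 74 was 0.689 in M-MI and 0.697 in S-MI.

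Cyp2e1 had a median log2 signal of 8.30 in sham, 8.71 in S-MI, 8.66 in M-MI and 6.10 in L-MI ventricles. M-MI was the most variable of the 4 groups, with 9.49, 9.40, 8.16, 7.22, 6.81 and 9.15 in its 6 arrays. The M-MI arrays of replicates 4 and 5 were below every sham array, and those of replicates 1, 2 and 6 were above every sham array. The difference from sham was 0.33 (SE 0.39) in S-MI and 0.15 (SE 0.39) in M-MI, with 95% intervals of -0.48 to 1.14 and -0.66 to 0.96.

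Ephx2 had a median of 8.05 in sham, 8.24 in S-MI, 8.15 in M-MI and 7.43 in L-MI ventricles. One M-MI array, replicate 3 at 7.23, lay below all sham arrays and within the L-MI range. The difference from sham was 0.15 (SE 0.23) in S-MI and -0.07 (SE 0.23) in M-MI. Cyp4b1 had a median of 10.02 in sham, 10.03 in S-MI, 10.00 in M-MI and 9.60 in L-MI ventricles. Its differences from sham were 0.01 (SE 0.08) in S-MI and -0.08 (SE 0.08) in M-MI. For these 3 genes the intervals in S-MI and M-MI thus leave out a reduction as large as the point estimate in L-MI, which has an interval of its own.

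Cyp27a1 was the exception to the overlap of S-MI and sham. All 6 S-MI arrays, 9.31 to 9.36, lay below all 6 sham arrays, 9.39 to 9.46, so that 1 of 74 genes did not overlap, against 0.394% of all rows. The difference was only -0.08 (SE 0.06) and had an unadjusted p of 0.228 by limma, whose spread is shared with the wider M-MI and L-MI groups. Cyp2t1 had -0.14 in S-MI, -0.23 in M-MI and -0.33 in L-MI relative to sham, with unadjusted p values of 0.17, 0.0251 and 0.00394.

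**Figure D3:**
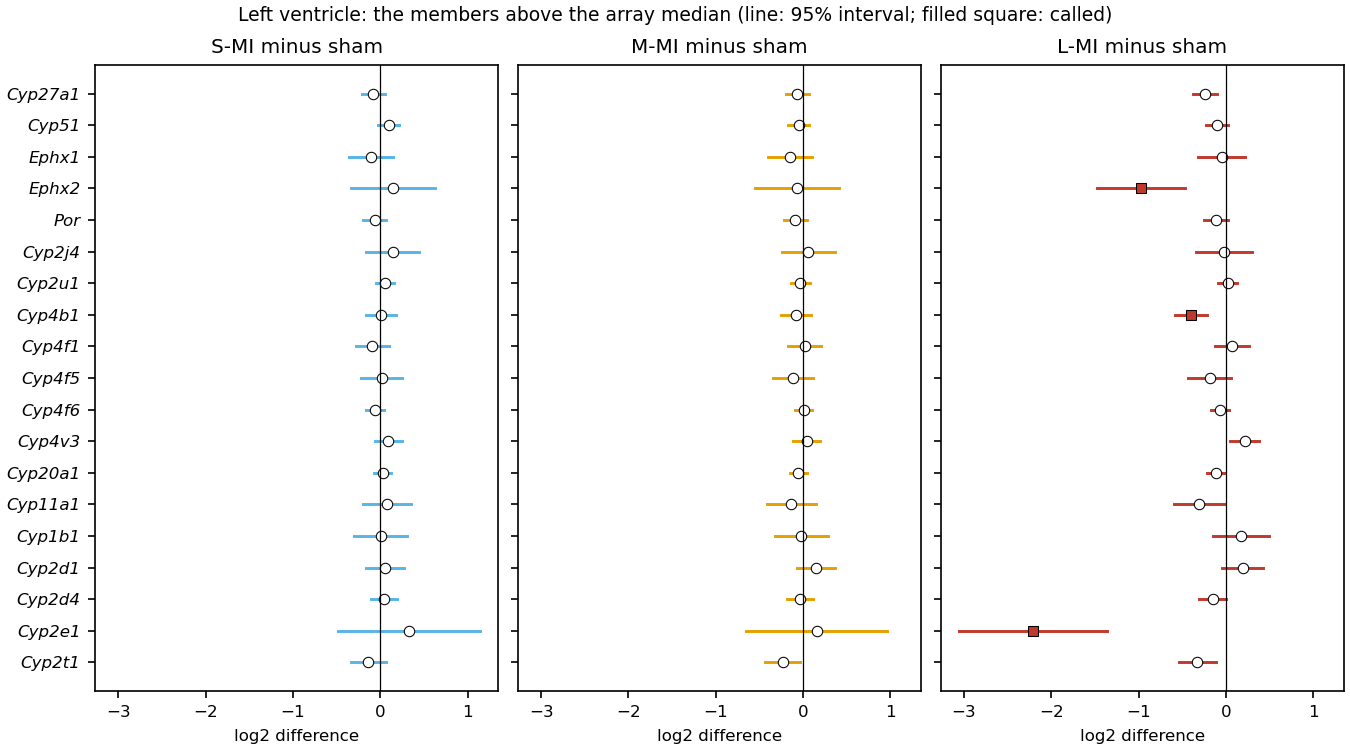
Log2 difference from sham, with its 95% interval, for the 19 genes at or above the LV array median, in S-MI, M-MI and L-MI from left to right. Filled squares mark called genes. None is called in S-MI or M-MI, and Cyp2e1 has the widest intervals in each panel.

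The large infarct was also set against the smaller ones, in comparisons that share the L-MI arrays with the one against sham. In L-MI against M-MI 2 of 74 genes were called, Cyp2e1 and Ephx2, against 2.68% of all rows, and both were lower, against 0.695% of all rows. Cyp2e1 had -2.36 (SE 0.41, limma adjusted p = 0.000618) and all its L-MI arrays lay below all M-MI arrays. Ephx2 had -0.90 (SE 0.24, adjusted p = 0.0231) with overlap. Its call was lost when only these 2 groups were fitted (adjusted p = 0.0977), without M-MI replicate 1 or 4 (0.0579 and 0.0541) and without L-MI replicate 2 or 5 (0.0621 and 0.0912). Cyp4b1 had -0.32 (adjusted p = 0.0281), a fold of 1.25 that was not called.

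In L-MI against S-MI 3 of 74 were called, against 2.48% of all rows, and all 3 were lower, against 0.911% of all rows. They were Cyp2e1 with -2.54 (SE 0.41, limma adjusted p = 0.000403), Ephx2 with -1.12 (SE 0.24, adjusted p = 0.00514) and Cyp4b1 with -0.41 (SE 0.09, adjusted p = 0.00537). All L-MI arrays lay below all S-MI arrays for Cyp2e1 and Ephx2. Cyp4b1 again overlapped through L-MI replicate 2, and was not called without S-MI replicate 4 or L-MI replicate 1 (-0.37 each) or without L-MI replicate 5 (-0.37). Cyp51 had -0.20 (adjusted p = 0.0503), a 1.15-fold reduction that missed both thresholds.

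The 3 called genes did not track each other closely from rat to rat. Across the 23 LV arrays, as a description only, Pearson's r was 0.58 between Cyp2e1 and Ephx2, 0.68 between Cyp2e1 and Cyp4b1 and 0.46 between Ephx2 and Cyp4b1. The arrays share the group differences, and after each group's mean was taken away r was -0.04, 0.19 and -0.20.

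In blood cells the comparison of L-MI with sham asked whether the failing heart is mirrored there. Here calls required a 1.2-fold difference or more together with a limma p no higher than 0.05 before adjustment. By that rule 1 of 74 genes was called, Cyp2j4, against 0.924% of all rows, and 4 of 74 had an unadjusted p under 0.05, against 3.77% of all rows. After Benjamini-Hochberg adjustment 0 of 74 genes and 0% of all rows passed at 0.05.

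Cyp2j4 had log2 signals of 6.86, 5.74, 6.00, 6.34 and 6.66 in L-MI PBMCs, against 5.52 to 6.06 with a median of 5.79 in sham PBMCs. Replicates 1, 4 and 5 of L-MI lay above all sham arrays, and replicates 2 and 3 lay within their range. The gene was low signal. The difference was 0.51 (SE 0.18), a 1.43-fold increase, with an unadjusted p of 0.0136, an adjusted p of 1 and an exact two-sided permutation p of 0.0433 over 462 splits.

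Ephx4, Cyp4f6 and Cyp2a2 passed the unadjusted p but not the fold. Ephx4, a low-signal member of the epoxide hydrolase family, had 5.78, 5.97, 5.98, 5.92 and 5.99 in L-MI PBMCs, against 5.66 to 5.83 in sham PBMCs. All but L-MI replicate 1 lay above the sham arrays, and the difference was 0.18 (SE 0.05, exact permutation p = 0.0108). Cyp4f6 had 7.66, 7.86, 7.53, 7.69 and 7.68 in L-MI PBMCs, against 7.74 to 8.06 in sham PBMCs, and was above the array median.

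All L-MI arrays of Cyp4f6 but replicate 2 lay below the sham arrays, and the difference was -0.19 (SE 0.07, exact permutation p = 0.0216). Cyp2a2, low signal and named after its values were seen, had a difference of 0.14 (SE 0.06, exact permutation p = 0.039). The 4 adjusted p values were each 1.

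**Figure D4:**
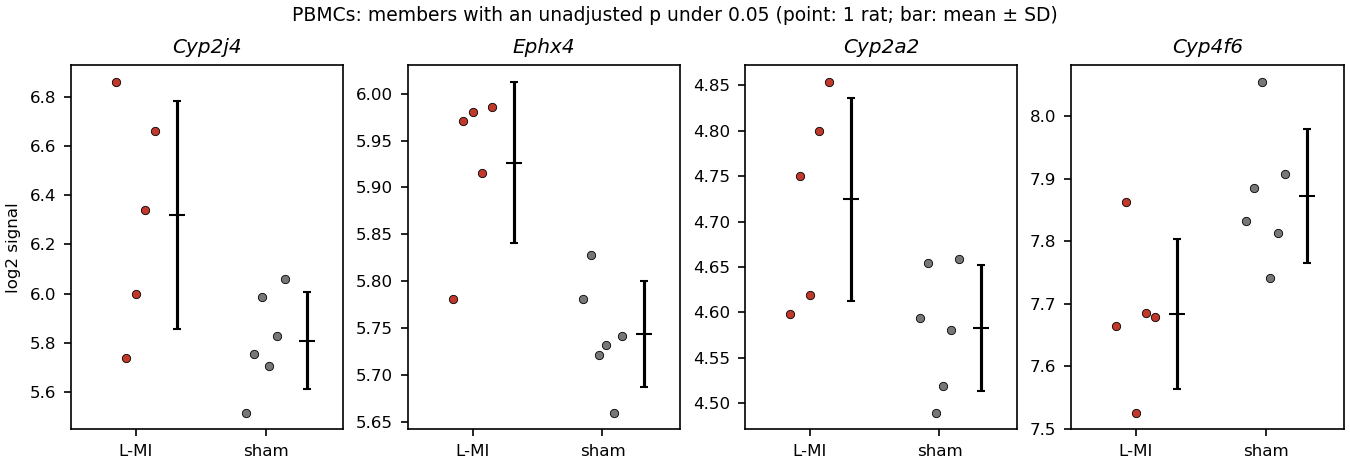
Log2 signal in PBMCs for the 4 genes with an unadjusted p under 0.05, with 1 point per rat in L-MI (left) and sham (right) and a bar for the mean ± SD. The groups overlap in every panel, through L-MI replicates 2 and 3 for Cyp2j4, which reaches 6.86 in L-MI.

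The other 12 genes at or above the PBMC array median were not called. Cyp2s1, a P450 without a settled substrate, had 9.53 ± 0.31 (SD, n = 5) in L-MI and 9.42 ± 0.18 (SD, n = 6) in sham PBMCs. Cyp4f18, which in the mouse hydroxylates leukotriene B4 in neutrophils, had 7.70 ± 0.31 in L-MI and 7.58 ± 0.26 in sham PBMCs (SD, n = 5 and 6). Por and Ephx1 had differences of 0.01 and 0.00, and Cyp2r1, a vitamin D 25-hydroxylase, had -0.02. The 3 called genes of the LV were low signal in PBMCs, with differences of -0.02 for Cyp2e1, 0.03 for Ephx2 and 0.05 for Cyp4b1.

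Whether the L-MI effect differed between the tissues was tested directly, by an interaction term over 22 arrays, with an adjusted p no higher than 0.05 required and no fold threshold. The labels do not pair hearts with blood, so the arrays were fitted as separate samples although some may come from the same rat. By that test 2 of 74 genes were called, Cyp2e1 and Cyp4b1, against 2.55% of all rows. The effect of L-MI on Cyp2e1 in the LV minus that in PBMCs was -2.19 (SE 0.29, limma adjusted p = 0.000145). That model shared 1 spread per gene over both tissues, although Cyp2e1 had an SD of 0.54 in L-MI ventricles and 0.07 in L-MI PBMCs. Its p values are therefore approximate. It also left out the S-MI and M-MI arrays, so its SE is not that of the LV comparison. The same difference was -0.45 for Cyp4b1 (SE 0.12, adjusted p = 0.0432), a call that was lost on leaving out any of 17 of the 22 arrays, with adjusted p values up to 0.0927. Ephx2 had -1.0 (SE 0.28, adjusted p = 0.0652), which passed when each array was centred on its median or the dimmest rows were left out. The signal of Cyp2e1, Cyp4b1 and Ephx2 in PBMCs was low, which bounds what the array could show there. A reduction could hardly be seen in PBMCs, so these differences rest on the LV values.

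Genes that work with the P450s were taken from lists of their partners. Of 10 electron carriers measured in the LV, 1 was lower in L-MI and 0 were higher, where 1.14% of all rows were called lower and 2.08% higher. That gene was Cyb5b, the cytochrome b5 of the outer mitochondrial membrane, with -0.42 (limma adjusted p = 0.000174). The median over this list was -0.08, against -0.01 for all rows. Of 12 genes of haem synthesis and breakdown, 1 was lower and 0 were higher, with a list median of -0.17. It was Alad, an early enzyme of haem synthesis, with -0.38 (adjusted p = 0.000808).

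Of 21 nuclear receptors and other regulators of P450 genes, 1 was lower and 0 were higher, against 1.14% and 2.08% of all rows. The list median was -0.07. The lower gene was Pparg, the receptor best known for fat storage, with -0.48 (adjusted p = 0.00138). Of 26 conjugating and other detoxifying enzymes, Aldh1a1, which makes retinoic acid, was higher with 0.63 and Mgst1, a microsomal glutathione transferase, was lower with -0.41. The other 24 were not called, and the list median was -0.03. In PBMCs 0 genes of these 4 lists were called, against 0.924% of all rows. An unadjusted p under 0.05 was found for 2 of the listed genes, against 3.77% of all rows.

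Cyclooxygenases, lipoxygenases and their partners use the same arachidonic acid as the P450 epoxygenases. Of 21 such genes measured in the LV, 8 were higher in L-MI and 0 were lower, against 2.08% of all rows called higher and 1.14% lower, and the list median was 0.22. Alox5ap and Alox5, which act in leukotriene synthesis, had 0.66 and 0.62, and Ptgis, prostacyclin synthase and itself a P450 by fold, had 0.60. Ptgs2, the inducible cyclooxygenase, had 1.11 at a low signal, with 6.54 to 8.02 in L-MI ventricles and 5.92 to 6.16 in sham ventricles. The adjusted p values of these 4 genes were 1.11e-05, 0.000743, 0.000522 and 0.00015 by limma. In PBMCs 1 of the 21 was called, Ptgs2, against 0.924% of all rows. It had 0.37 at an unadjusted p of 0.0146.

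Markers of some cell types also differed between L-MI and sham ventricles. Of 12 macrophage markers, 11 were higher in L-MI ventricles (2.08% of all rows), and their summed log2 level was 12.63 to 13.26 in L-MI and 12.06 to 12.28 in sham ventricles. Of 10 fibroblast markers, 5 were higher, with summed levels of 14.13 to 14.40 in L-MI and 13.89 to 14.02 in sham ventricles. Of 12 cardiomyocyte markers, all were above the array median in the LV and all below it in PBMCs. Of these cardiomyocyte markers only Nppa was called, higher, and their summed level was 16.75 to 16.83 in L-MI and 16.74 to 16.77 in sham ventricles. Of 10 T cell markers, all were above the array median in PBMCs and 8 were below it in the LV. Of these T cell markers Cd4 was called, higher with 0.76, and their summed level was 10.33 to 10.79 in L-MI and 10.09 to 10.32 in sham ventricles. The sum adds linear signals, so a bright marker weighs most. The mean log2 signal over the same markers was 6.12 to 6.35 in L-MI and 6.01 to 6.33 in sham ventricles, with overlap. For 9 endothelial markers the summed level was 12.90 to 13.01 in L-MI and 12.98 to 13.14 in sham ventricles, with overlap. For 10 hepatocyte markers, 8 of them low signal, it was 10.59 to 10.92 in L-MI and 10.41 to 10.73 in sham ventricles, with overlap. The part of cell composition in the differences above was not tested.

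Cyp2e1 is also abundant in fat cells of rodents, so that the adipocyte markers are given beside it. Of 12 measured, 2 were lower in L-MI ventricles (1.14% of all rows) and 0 higher: Aqp7, a channel for water and glycerol, with -1.31, and Lipe, hormone-sensitive lipase, with -0.44. Their summed log2 level was 12.51 to 12.80 in L-MI and 13.06 to 13.19 in sham ventricles, with no overlap. That sum adds linear signals and so rests mostly on the brightest probes, those of Aqp7 and Pnpla2, with mean levels of 11.12 and 11.97. Of the 12 markers 8 had a positive difference, and the list median was 0.06. The defining markers Adipoq, Plin1, Cidec, Lep and Retn were all low signal in the LV. Adipoq and Plin1 had differences of 0.30 (adjusted p = 0.122) and 0.05 (adjusted p = 0.745), both at a low signal. Cfd, adipsin, had 0.34 (adjusted p = 0.00785), under the fold threshold. The part of fat cells in the Cyp2e1 difference was not tested.

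Across the 23 LV arrays r between Cyp2e1 and Aqp7 was 0.91, and 0.70 with group means taken away. With Pnpla2, the triglyceride lipase that heart muscle also uses, it was 0.80 and 0.61, and with Lipe 0.84 and 0.45. With Adipoq r was -0.54, and -0.17 with group means taken away, and with Plin1 it was -0.18 and -0.05. For the other 7 markers r with group means taken away lay between -0.34 (Retn) and 0.08 (Fabp4). The pair of M-MI arrays with the lowest Cyp2e1, replicates 4 and 5, also had the lowest Aqp7 of that group, 10.95 and 10.74. These are descriptions over arrays that share group, preparation and normalization.

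**Figure D5:**
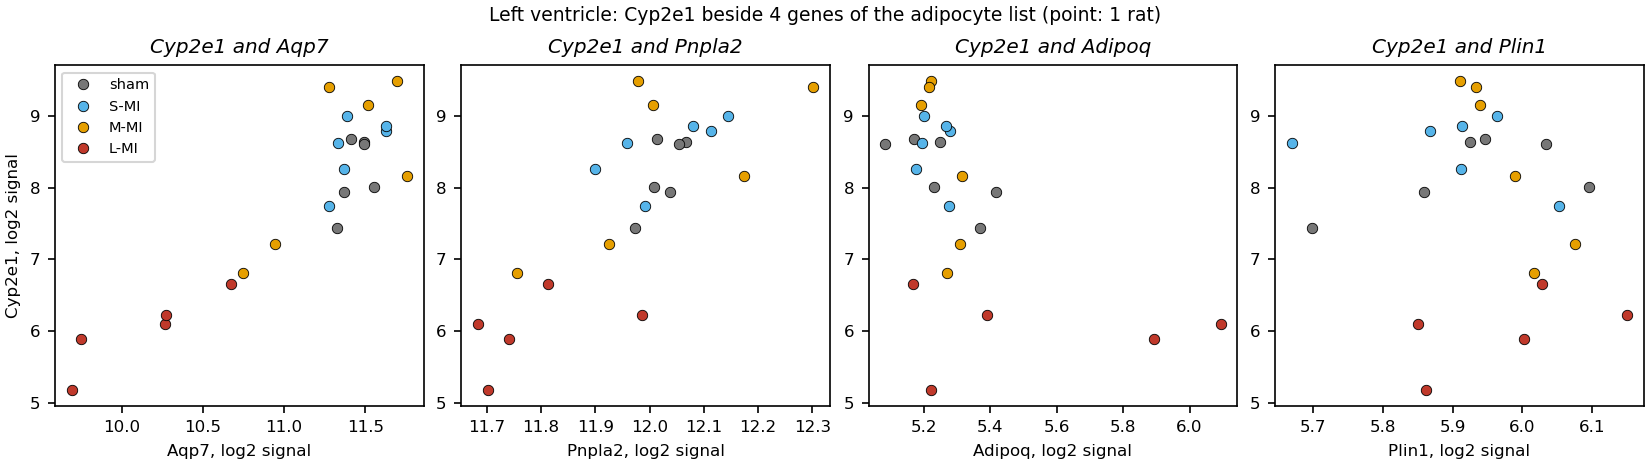
Log2 signal of Cyp2e1 (vertical axis) against that of Aqp7, Pnpla2, Adipoq and Plin1 (horizontal axes) in the LV, with 1 point per rat for 23 rats. Cyp2e1 is higher in arrays with higher Aqp7 and Pnpla2 (r 0.91 and 0.80), while Adipoq and Plin1 (r -0.54 and -0.18) stay at a low signal.

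Some LV arrays stood apart on the first principal component whatever their group. The sham arrays of replicates 4 and 6 and the S-MI arrays of replicates 4 and 5 lay at 112 to 138 on the first principal component of all rows, and L-MI replicate 4 lay at -165.2, at its other end. Without the 4 sham and S-MI arrays Cyp2e1 had -2.31 (adjusted p = 0.0054) and Ephx2 had -1.06 (adjusted p = 0.0315), both called in L-MI against sham. Cyp4b1 then had -0.36 (adjusted p = 0.0272), under the fold threshold. With L-MI replicate 4 left out as well, Cyp2e1 had -2.36 (adjusted p = 0.0108) and Ephx2 had -1.23 (adjusted p = 0.0154), both called, while Cyp4b1 had -0.35 (adjusted p = 0.0532). Replicate 4 held the highest Ephx2 of L-MI, 7.84, and replicate 5, which was kept, held the lowest, 6.21. On the second component L-MI replicate 5 lay furthest out, at -150.8, and it had the highest summed neutrophil markers, 9.39. Without replicate 5 alone Ephx2 had -0.74 (limma adjusted p = 0.0435). The highest correlation between any pair of arrays was 0.997, and no pair held identical values.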

How the data were processed

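Expression had been measured on Affymetrix arrays in 23 left ventricles and 11 PBMC samples. The authors normalized the scans by RMA in Partek (versions not given), and the deposited table holds log2 values, 1 row per transcript cluster. The base of the logarithm was taken from RMA, whose output is on the log2 scale. Gene symbols came from the platform annotation: 15310 of 29214 rows had 1 symbol, 323 had several (0 of these held a gene of the set) and 13581 had none. LV and PBMC levels were not compared.

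All rows were fitted with limma 3.58.1 in R 4.3.3, the 4 LV groups in a single model, and p values were adjusted over all 29214 rows. LV calls needed a fold of 1.3 and an adjusted p of 0.05, PBMC calls a fold of 1.2 and an unadjusted p of 0.05. The folds and p limits were those of the study. Its methods state a correction for heart tissue, none for PBMCs, and name no test for the arrays. The heading of its PBMC gene list, however, says that p values were adjusted by false discovery rate. An exact two-sided permutation test over 462 splits was added for PBMC genes. Intervals are 95% intervals of the model. Replicates were separate rats; their number limits the precision. The code was tested on simulated data.

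The genes and the lists of partners and markers were chosen with earlier results of these data known. Genes were named if called in any comparison, if they were an epoxide hydrolase or Por, if they were among the 12 (LV) or 8 (PBMC) largest changes above the array median, or if they had the 2 highest means of their role group. Alternatives were another variance model, array weights, a filter on dim rows, centring, renewed quantile normalization, means over rows of a symbol, fits of 2 groups, a replicate block, other thresholds, and leaving out each array. Sequences were read from RefSeq tables of GRCr8, matched by gene ID for 58 of 74 genes, and the promoter table held none for Ephx2. Python 3.11.15 and matplotlib 3.10.9 were used for sequences and plots.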

Additional observations from a re-analysis of the deposited data

Results flagged for a closer look

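In 88 groups of arrays of the 28 genes and tissues with values shown, 6 had an array far from the rest of its group by Dixon's test, and chance alone gives about 5% of groups. Cyp4b1 had such an array in L-MI ventricles, replicate 2 at 10.04 with the next array at 9.61, and in M-MI ventricles, replicate 5 at 9.74 with the next at 9.96. Without that L-MI array the difference of L-MI from sham for Cyp4b1 was -0.50. Ephx1 had 9.92 in L-MI replicate 5 of the LV with the next array at 9.42, and Cyp20a1 had 9.42 in the same array with the next at 9.24. Cyp2u1 had 8.27 in M-MI replicate 2 of the LV, and Cyp51 had 8.96 in M-MI replicate 1.

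The effect of L-MI differed between LV and PBMCs by the interaction term of limma, with a difference of -2.19 for Cyp2e1 and of -0.45 for Cyp4b1 (LV minus PBMCs). Both genes were low signal in PBMCs.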

How the results depend on the processing

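Cyp2e1 and Ephx2 stayed called in L-MI against sham ventricles under each of 13 alternatives, with differences of -2.40 to -2.10 and -1.23 to -0.96. Some of these alternatives could not have ended either call. They were means over rows of a symbol (each gene had 1 row), the limit to genes above the array median, and no fold threshold. No called value changed its direction under any setting run. Cyp4b1 was not called after renewed quantile normalization (-0.38). Without a fold threshold the counts of called genes were 5 in L-MI against sham, 4 in L-MI against M-MI and 4 in PBMCs. When only the 2 groups were fitted, 1 gene was called in L-MI against M-MI. In PBMCs 0 genes were called after adjustment, and 0 among genes at or above the array median. The interaction had 4 calls without the 30% dimmest rows, 4 with each array centred on its median (Cyp27a1 and Ephx2 were added both times) and 1 after quantile normalization. With 1 array left out, calls ranged from 2 to 4 in L-MI against sham, 1 to 2 against M-MI, 2 to 3 against S-MI, 0 to 0 in M-MI and in S-MI against sham, 1 to 1 in PBMCs and 1 to 3 for the interaction. Leaving out the 4 or 5 arrays apart on the first component, which also ended the call of Cyp4b1 (-0.36 and -0.35), was chosen after seeing the data.

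Deviations of arrays with the same replicate number had a median correlation of 0.01 in the LV (-0.26 to 0.26) and 0.04 in PBMCs (-0.05 to 0.13). Between LV and PBMC arrays of a group it was 0.01 (-0.05 to 0.14) for the same number. For different numbers it was -0.0055 (-0.12 to 0.09). Such small values cannot settle whether arrays of a number share a rat or a batch. With the replicate block 3 genes were called in L-MI against sham, 0 in M-MI and 0 in S-MI against sham, 2 in L-MI against M-MI, 3 in L-MI against S-MI, 1 in PBMCs and 3 for the interaction, where Cyp27a1 was added.

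The 5 to 6 rats a group limit the precision, and a gene listed as low signal is not shown to be absent.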

Other observations

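A row that has no symbol in the platform annotation, but which a table of the study names Cyp2c12, was left out of the 74 genes. In PBMCs it had a log2 signal of 6.75 ± 0.16 (SD, n = 5) in L-MI and 7.17 ± 0.20 (SD, n = 6) in sham rats, a difference of -0.42 (SE 0.10, unadjusted limma p = 0.00113, adjusted p = 1, exact permutation p = 0.00866). It was low signal in both tissues by the rule used here, in PBMCs only just below the array median of 6.99. In the LV its difference was 0.09. The row that the annotation does name Cyp2c12, a female-specific P450 of rat liver, was low signal in both tissues, with differences of 0.08 in PBMCs and -0.23 in the LV. Which gene the unnamed row measures was not tested.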
